A study of Mus musculus with 12 samples.

Results

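The primitive endoderm is the extraembryonic layer that forms beside the epiblast in the late blastocyst, and ESCs, which derive from the inner cell mass, can express its genes at a low level. The 7 markers described here were chosen by symbol, and all 7 were found among the 24881 gene symbols of the table. They are the transcription factors *Gata4*, *Gata6*, *Sox7*, *Sox17* and *Foxa2*, the receptor *Pdgfra* and the endocytic adaptor *Dab2*. In the blastocyst, FGF4 from the epiblast acts through FGF receptors and ERK to maintain *Gata6* in the cells that become primitive endoderm, while *Nanog* marks the epiblast. The factors *Gata6*, *Sox17*, *Gata4* and *Sox7* then appear in that order, PDGFRA marks the layer from early on, and DAB2 serves uptake and epithelial order in the mature endoderm. *Foxa2* is a factor of the visceral and the definitive endoderm.

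RNA-seq was performed on mouse R1 ESCs with FUCCI, a fluorescent reporter system of cell cycle phase, and all cells were sorted in G1 phase. WT and P53-/- ESCs were each grown in serum with LIF or in 2i (N2B27 medium with the MEK inhibitor PD0325901, the GSK3 inhibitor CHIR99021 and LIF). The P53-/- lines are clones made with CRISPR-Cas9. The study names 2 P53-/- clones for its RNA-seq, without tying a library to either. Every combination of genotype and culture had 2 libraries, numbered here by their order in the table, and for WT nothing says whether these came from separate cultures. The p values measure the spread between these libraries, which may be technical in WT and may hold a difference between clones in P53-/-.

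The values are FPKM, fragments per kilobase of transcript scaled to the mapped total. Depth is not stated, and the smallest steps seen in 3324 single-transcript genes put it at about 5200000 to 13000000 fragments a library. *Trp53*, which encodes P53, lay between 26.8 and 77.6 FPKM in the WT libraries and between 1.88 and 16.8 in the P53-/- libraries. The 10 ESC markers were all expressed, with mean FPKM from 20.8 for *Prdm14* to 680 for *Pou5f1*.

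The 7 markers were expressed at a very low level. Their mean FPKM over the 8 libraries ran from 0.0757 for *Foxa2* to 0.933 for *Gata4*, and between 63.2% and 83.2% of the 18380 genes detected in any library had a higher mean. *Gata4* alone reached the mean FPKM of 0.5 set for the main test, and the other 6 markers (*Gata6*, *Sox7*, *Sox17*, *Foxa2*, *Pdgfra* and *Dab2*) were fitted only in an alternative with all 18380 detected genes. The 7 values together summed to 2.76 and 2.93 FPKM for WT serum, 1.28 and 1.45 for P53-/- serum, 2.58 and 4.36 for WT 2i, and 1.63 and 2.32 for P53-/- 2i. The highest sum was that of WT 2i library 1, and the P53-/- sums lay below the WT sums in both cultures. In sorted populations, a few cells of another type and a low level in every cell cannot be told apart.

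**Figure D1:**
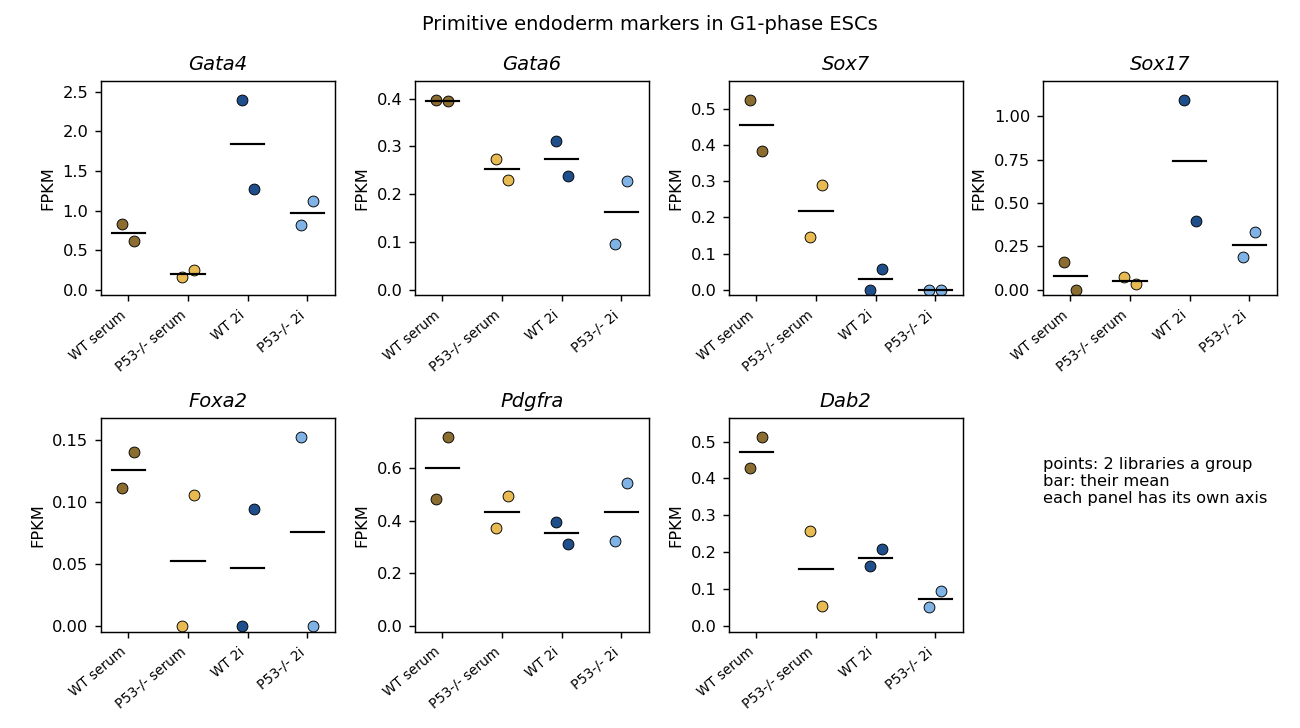
FPKM (vertical axes, one scale per gene) of the 7 primitive endoderm markers in the 2 libraries of each group, with the mean as a bar. The mean of *Gata4* and of *Sox17* was highest in WT 2i and that of *Gata6*, *Sox7*, *Foxa2*, *Pdgfra* and *Dab2* in WT serum, and all values lay between 0 and 2.40 FPKM.

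Such values rest on few fragments. With the longest annotated transcript of each gene, 1 fragment was worth 0.011 to 0.028 FPKM for *Pdgfra*, the longest, and 0.035 to 0.09 FPKM for *Foxa2*, the shortest. *Gata4* then rested on about 7 to 64 fragments a library and *Pdgfra* on about 11 to 44. *Foxa2* had at most 3 fragments in a library and 11 in all 8 libraries. These estimates share an unknown common factor, since the authors' annotation is not known, and give no interval.

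**Figure D2:**
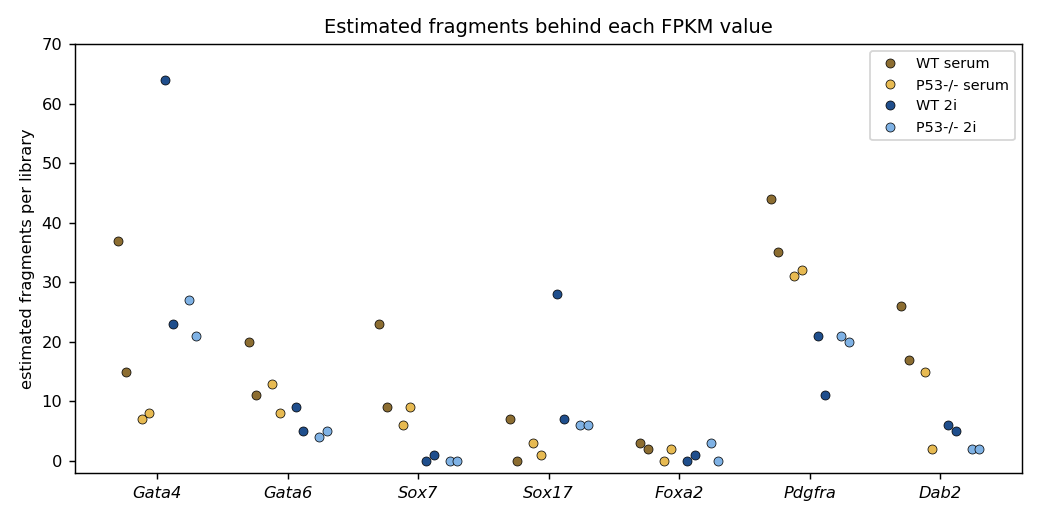
Estimated fragments (vertical axis) behind the FPKM value of each marker in each library, coloured by group. *Gata4* and *Pdgfra* rest on the most fragments, and no *Foxa2* value on more than 3.

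Between cultures, the markers did not move together. *Gata4* and *Sox17* were higher in 2i, *Sox7* was higher in serum, and *Gata6*, *Foxa2*, *Pdgfra* and *Dab2* had lower means in 2i over both genotypes with overlapping libraries. Within P53-/-, the *Pdgfra* means were equal at 0.433 FPKM and the *Foxa2* mean was higher in 2i (0.0765 against 0.0529). In the limma fit of all detected genes, 3 of the 7 markers were called between WT 2i and WT serum (called: a fold over 1.5 with an adjusted p below 0.1). *Gata4* and *Sox17* were called as higher and *Sox7* as lower, where 22.4% of all genes fitted were called as higher and 21.6% as lower, so that 3 of 7 is close to the background. In P53-/-, *Gata4* was called as higher and *Sox7* as lower, with 22.8% and 23.6% of all genes in these directions. Averaged over genotypes, *Gata4* and *Sox17* were called as higher and *Sox7* and *Dab2* as lower, with 24.8% and 24.7%. These counts moved with the scaling: quantile normalization gave 5 of 7 in WT and 6 of 7 averaged over genotypes, beside 44.5% and 49.8% of all genes in either direction. A pseudocount of 1 gave 2 and 1 of 7, beside 35.7% and 36.9%.

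*Gata4*, a zinc finger factor of the established primitive endoderm, rose from 0.83 and 0.614 FPKM in the WT serum libraries to 2.40 and 1.28 in those of WT 2i. In P53-/- the values were 0.162 and 0.246 for serum and 0.812 and 1.12 for 2i. In both genotypes the 2i libraries lay above the serum libraries, while WT serum library 1 lay just above P53-/- 2i library 1. In the main fit, 2i exceeded serum by 1.19 on the log2 scale in WT (standard error, SE, 0.43; limma adjusted p = 0.044), where 27.2% of genes tested were called as higher and 28.6% as lower. In P53-/- the difference was 1.81 (SE 0.43, limma adjusted p = 0.00748), with 28.0% called as higher and 30.1% as lower. Averaged over both genotypes it was 1.5 (SE 0.31, limma adjusted p = 0.0026), with 28.6% and 30.6%. The exact permutation test of 4 against 4 libraries, which takes no account of genotype, gave p = 0.0571 for *Gata4*. Without WT 2i library 1 the change in WT was 0.76 and was not called (limma adjusted p = 0.212), and without WT serum library 2 it was 1.0 and was not called either (limma adjusted p = 0.147). Quantile normalization also ended this call (0.90, limma adjusted p = 0.105). With all detected genes, a fit of the WT groups alone called 0 of the 7 markers as higher in 2i, so *Gata4* was not called there either. The change in P53-/- and the average remained called with each library left out.

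*Sox17*, an HMG box factor of the primitive and the definitive endoderm, reached 1.09 and 0.395 FPKM in the WT libraries from 2i and 0.187 and 0.333 in the P53-/- ones. In serum the WT values were 0.159 and 0, and those of P53-/- were 0.0722 and 0.0319. All 4 values in 2i lay above all 4 in serum (exact permutation test of 4 against 4 libraries, two-sided, p = 0.0286, the smallest this design can give). Of all detected genes, 22.8% were separated in this way with 2i above serum, and 19.1% of the 4345 genes with a mean FPKM of 0.05 to 1. The fitted change in WT was 2.26 on the log2 scale (SE 0.60, limma adjusted p = 0.0205). It was 1.62 without WT 2i library 1 (limma adjusted p = 0.136) and 1.57 without WT serum library 2 (limma adjusted p = 0.142), and called in neither. A fit of the WT groups alone also lost the call (limma adjusted p = 0.133). With WT serum library 2 listed at 0, the size of the change in WT depended on the settings. It ran from 0.667 to 4.025 over the pseudocounts, scalings and fits with all libraries.

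*Sox7*, a close relative of *Sox17*, went the other way. Its serum values were 0.525 and 0.385 FPKM for WT and 0.146 and 0.289 for P53-/-, against 0 and 0.0581 for WT 2i. In both P53-/- 2i libraries it was listed at 0, and the single value above 0 in 2i stood for about 1 fragment. *Sox7* has 1 annotated transcript, so that its fragments can be read most directly, and in serum they came to about 23, 9, 6 and 9. All serum values lay above all 2i values (exact permutation test, two-sided, p = 0.0286), as they did for 24.3% of detected genes and 13.1% of the 4345 genes with a mean FPKM of 0.05 to 1. The change was called in WT (limma adjusted p = 0.00359) and in P53-/- (limma adjusted p = 0.0103). No fold change is given against P53-/- 2i, which is listed at 0. In WT the fitted value was -2.13 on the log2 scale, and it ran from -4.14 to -0.50 with pseudocounts of 0.01 and 1. With the pseudocount of 1 the fold threshold was missed in both genotypes.

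*Gata6*, the earliest of the factors, was at 0.397 and 0.395 FPKM in the WT serum libraries and at 0.311 and 0.238 in those of WT 2i. The P53-/- libraries had 0.273 and 0.231 (serum) and 0.0965 and 0.229 (2i). The WT 2i values lay below both WT serum values, but the 2i and serum libraries overlapped over both genotypes. The averaged log2 difference of 2i from serum was -0.44 (SE 0.25, limma adjusted p = 0.184), and the exact permutation test of 4 against 4 gave p = 0.171. *Gata6* was not called in either genotype with all libraries and the usual scaling. It was called as lower in WT 2i with quantile normalization (limma adjusted p = 0.0937), which ended the WT call of *Gata4* in the main fit, and in P53-/- without P53-/- 2i library 2 (limma adjusted p = 0.0539).

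*Dab2*, the adaptor, was at 0.428 and 0.513 FPKM in the WT serum libraries and at 0.162 and 0.21 in those of WT 2i. The P53-/- libraries had 0.258 and 0.0548 (serum) and 0.0537 and 0.0956 (2i). In WT, both 2i values were below both serum values, and the log2 difference of -1.0 missed the threshold (SE 0.44, limma adjusted p = 0.113). It passed with quantile normalization, in a fit of the WT groups alone and without the trend (limma adjusted p from 0.0417 to 0.0963), and without either P53-/- serum library (limma adjusted p of 0.0249 and 0.0267). Averaged over genotypes it was called (-0.72, limma adjusted p = 0.0897), with an exact permutation p of 0.171. In P53-/- it was not called, and its difference ran from -1.05 without P53-/- serum library 2, where it was called (limma adjusted p = 0.0444), to 0.16 without P53-/- serum library 1. For the average, leaving out any one library except P53-/- serum library 2 ended that call. Without that library, which had the lowest value in serum, the exact permutation p was 0.0286.

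*Pdgfra* was the most even of the markers. It lay between 0.31 and 0.717 FPKM in all libraries, with means of 0.6 ± 0.166 (SD, n = 2) in WT serum, 0.433 ± 0.0847 in P53-/- serum, 0.352 ± 0.0591 in WT 2i and 0.433 ± 0.155 in P53-/- 2i. Neighbouring groups in this order overlapped, and only WT serum and WT 2i did not. That difference was -0.62 on the log2 scale and was not called (SE 0.37, limma adjusted p = 0.233), though it was with quantile normalization (limma adjusted p = 0.05). *Foxa2* was listed at 0 in 3 libraries, 1 in each of P53-/- serum, WT 2i and P53-/- 2i, and reached at most 0.153 FPKM. No contrast of *Foxa2* was called, and its values rest on 0 to 3 fragments a library.

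**Figure D3:**
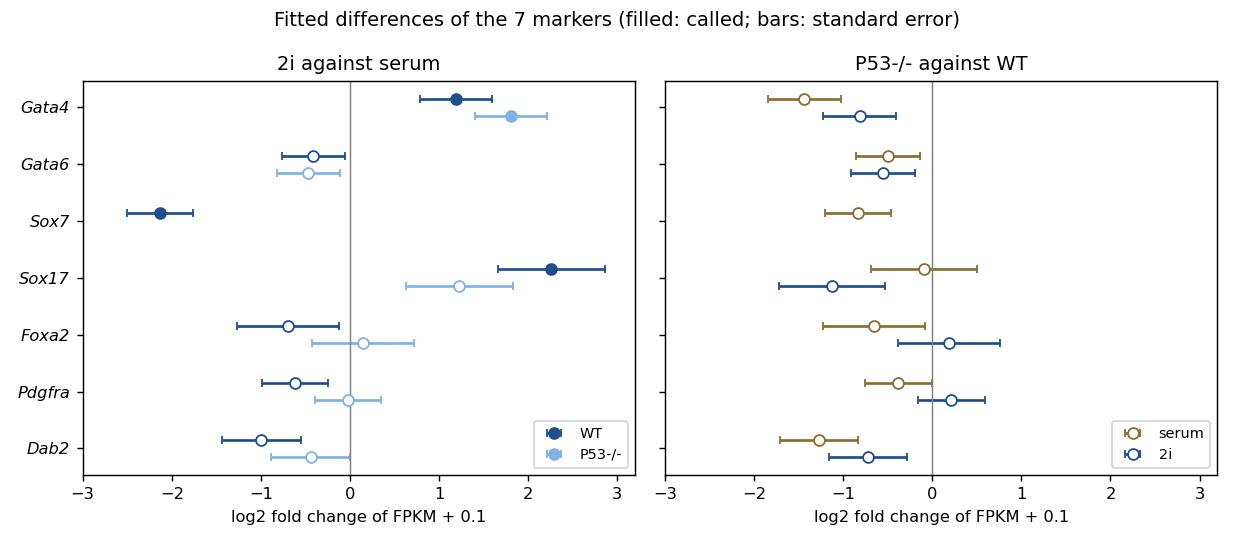
Log2 fold change of FPKM + 0.1 (horizontal axes) of each marker, from the limma fit of all detected genes, for 2i against serum (left) and P53-/- against WT (right). Points are estimates with their SEs, filled where called. *Sox7* is left out where P53-/- 2i, listed at 0, is one of the groups. The left panel shows *Gata4* and *Sox17* to the right of 0 and *Sox7* to the left, and no point of the right panel is filled.

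Loss of P53 went with lower values of several markers in both cultures, though no marker was called within a culture. P53-/- libraries lay wholly below WT in 2i for *Gata4*, *Gata6*, *Sox17* and *Dab2*, 4 of the 7 markers, where this held for 21.7% of detected genes and for 25.2% of the 4345 genes with a mean FPKM of 0.05 to 1, the range that holds the 7 means. In serum the same was true of *Gata4*, *Gata6*, *Sox7*, *Foxa2* and *Dab2*, 5 of the 7, against 18% of detected genes and 15.8% of those 4345. Some of these separations were of 1 fragment or less. The nearest values of the groups stood for about 2 and 3 fragments for *Foxa2* in serum and 6 and 7 for *Sox17* in 2i. They stood for 5 each for *Gata6* in 2i (0.229 and 0.238 FPKM) and 9 each for *Sox7* in serum (0.29 and 0.385 FPKM). *Gata4*, *Gata6* and *Dab2* were separated in both cultures, 3 of 7 where the share of detected genes was 7.11%, and 0 of the 7 lay wholly above WT in either culture, against 23.3% of detected genes in 2i, 21.7% in serum and 7.73% in both. Among the 4345 low genes these upward shares were 16.0%, 18.7% and 3.52%. Among the 4345 low genes the share separated downward in both cultures was 6.4%.

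In the fit of all detected genes, 0 of the 7 markers were called for P53 loss in 2i, with calls for 4.29% of genes downward and 3.2% upward, and 0 had an unadjusted p under 0.05, as had 21.4% of all genes. In serum 0 were called, with 0.43% of genes lower and 0.0925% higher, and 2 had an unadjusted p under 0.05, as had 9.47% of all genes. These were *Gata4*, at -1.43 on the log2 scale in the main fit (SE 0.43, limma adjusted p = 0.273), and *Dab2*, at -1.27 (SE 0.44, limma adjusted p = 0.433). Without P53-/- serum library 1, *Dab2* was called for P53 loss in serum (-1.88, limma adjusted p = 0.0887). In 2i, the log2 difference was -0.81 for *Gata4* (limma adjusted p = 0.288 in the main fit and 0.317 with all detected genes) and -1.12 for *Sox17* (limma adjusted p = 0.352). Without WT 2i library 1 these were -0.39 and -0.49, and without WT 2i library 2 they were -1.24 and -1.76, with no call. *Dab2* and *Gata6* had -0.72 and -0.55, with limma adjusted p of 0.412 and 0.433. With a library left out, *Dab2* ran from -0.89 to -0.54 and *Gata6* from -0.92 to -0.18.

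A contrast of P53-/- against WT averaged over both cultures was added after these values had been seen. In it the estimate of every one of the 7 markers was below 0, as for 47% of the genes fitted. The direction of *Foxa2* and *Pdgfra* was not stable, with ranges of -0.57 to 0.10 and -0.23 to 0.07 when a library was left out, and *Pdgfra* was at 0.02 with quantile normalization. *Gata4* passed, with mean FPKM of 1.28 in WT and 0.586 in P53-/- and a log2 difference of -1.12 (SE 0.31, limma adjusted p = 0.0753 in the main fit), with 4.02% of genes called in that direction and 1.98% in the other. With all detected genes fitted these shares were 3.01% and 1.5%, and *Gata4* was the 1 of 7 called. That call was lost with each library left out except WT 2i library 2, with limma adjusted p values up to 0.206. With all libraries, a pseudocount of 1 and quantile normalization also ended it (limma adjusted p of 0.102 and 0.114). *Dab2* had -1.0 (SE 0.31, limma adjusted p = 0.142, and 0.05 without P53-/- serum library 1) and *Gata6* -0.52 (SE 0.25, limma adjusted p = 0.307). For these 3 genes, an exact permutation of the genotype within each culture gave p = 0.0556, the smallest possible, so that this test cannot pass 0.05 here.

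Whether the effect of P53 loss depends on the culture was tested as an interaction. None of the 7 markers was called in the fit of all detected genes, and 0 had an unadjusted p under 0.05, as had 11.7% of all genes, with 0.0871% of genes called as higher and 0.0653% as lower. In the main fit these shares were 0.103% each. For *Gata4* the interaction was 0.62 on the log2 scale (SE 0.61, limma adjusted p = 0.704). For *Sox17*, which was lower in P53-/- 2i but not separated in serum, it was -1.03 (SE 0.85, limma adjusted p = 0.697). With a library left out, the interaction ran from 0.19 to 1.05 for *Gata4* and from -1.72 to -0.35 for *Sox17*.

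Positions were taken from GENCODE M21 (GRCm38) by symbol. *Gata4* (minus strand, chr14:63198922-63271692) and *Sox7* (plus strand, chr14:63943673-63950732) lie 672 kb apart on chromosome 14, and the culture moved them in opposite directions. *Sox17* lies at chr1:4490931-4497354, *Foxa2* at chr2:148042877-148046969, *Pdgfra* at chr5:75152292-75198215 and *Dab2* at chr15:6299788-6440712. Annotated transcripts on the opposite strand overlap *Gata6*, *Sox17*, *Pdgfra* and *Dab2*. The library kit keeps the strand, but whether it was used in counting is not stated, so reads of these partners cannot be told apart. The partner of *Gata6*, 1010001N08Rik, was listed at 0 in all libraries, and those of the others have no line in the table.

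RefSeq promoter windows (GRCm38.p6, 250 bases before to 50 after an annotated start) were matched by symbol for 3 of the 7 markers, *Dab2*, *Foxa2* and *Pdgfra*, with 6 windows. *Gata4*, *Gata6*, *Sox7* and *Sox17* were not matched in the promoter table used here. The windows of *Dab2*, one of the 3 markers whose P53-/- and WT libraries did not overlap in either culture, are shown because its starts differ in base composition, and that of *Pdgfra* because it is the marker that varied least. Capitals mark the letters AGATAA or TGATAA, the core of GATA sites, and TGTTTAC or TATTTAC, a FOX core, on either strand.
*Dab2* first start, chr15:6299539-6299838, plus strand: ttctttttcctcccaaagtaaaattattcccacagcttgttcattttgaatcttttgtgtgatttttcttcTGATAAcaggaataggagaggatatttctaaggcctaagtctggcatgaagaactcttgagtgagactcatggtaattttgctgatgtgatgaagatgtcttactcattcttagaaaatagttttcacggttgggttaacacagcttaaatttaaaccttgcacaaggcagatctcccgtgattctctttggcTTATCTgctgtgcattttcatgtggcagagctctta
*Dab2* second start, chr15:6386498-6386797, plus strand: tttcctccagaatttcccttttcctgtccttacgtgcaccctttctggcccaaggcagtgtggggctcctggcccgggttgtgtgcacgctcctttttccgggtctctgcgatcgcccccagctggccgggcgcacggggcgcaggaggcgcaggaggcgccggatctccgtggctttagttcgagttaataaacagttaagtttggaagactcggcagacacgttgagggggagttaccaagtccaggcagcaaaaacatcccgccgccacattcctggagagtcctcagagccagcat
*Pdgfra*, chr5:75152001-75152300, plus strand: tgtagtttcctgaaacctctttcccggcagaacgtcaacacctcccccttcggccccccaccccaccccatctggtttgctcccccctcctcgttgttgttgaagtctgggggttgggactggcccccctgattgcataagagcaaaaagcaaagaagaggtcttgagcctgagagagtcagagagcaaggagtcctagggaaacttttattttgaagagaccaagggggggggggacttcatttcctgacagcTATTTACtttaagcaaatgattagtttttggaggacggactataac

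The first *Dab2* window has 37.7% GC, 2 CpG and 2 GATA matches, TGATAA 179 bases before the start and TTATCT, the other strand of AGATAA, at base 15 after it. The second has 59.3% GC, 19 CpG and 0 GATA matches. The *Pdgfra* window has 51% GC, 5 CpG and 1 FOX match, TATTTAC at base 5 after the start. Of the 3 *Foxa2* windows, 1 has a GATA match. Of all 32851 windows, 18.6% hold a GATA match and 6.54% a FOX match. The P53 half-site consensus, whose pattern is its own reverse complement, was found in 0 of the 6 windows and in 8.36% of all. The FPKM values are per gene and do not say which *Dab2* start was used.

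The profile of *Gata4* over the 8 libraries was closest to those of *Pbx4*, a homeobox gene, *Creb3l4*, a bZIP gene, and *Emp2*, a membrane protein gene. Likeness was the root mean square difference between log2 values centred on the mean of each gene, which was 0.213 for *Pbx4*, 0.258 for *Creb3l4* and 0.306 for *Emp2*, against a median of 1.22 over the other genes compared. For *Pbx4* the 2i libraries gave 2.88 and 1.31 FPKM (WT) and 0.941 and 1.26 (P53-/-), and the serum libraries 0.811 and 0.986 (WT) and 0.246 and 0.399 (P53-/-). Like *Gata4*, it was highest in WT 2i library 1 and lowest in P53-/- serum.

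**Figure D4:**
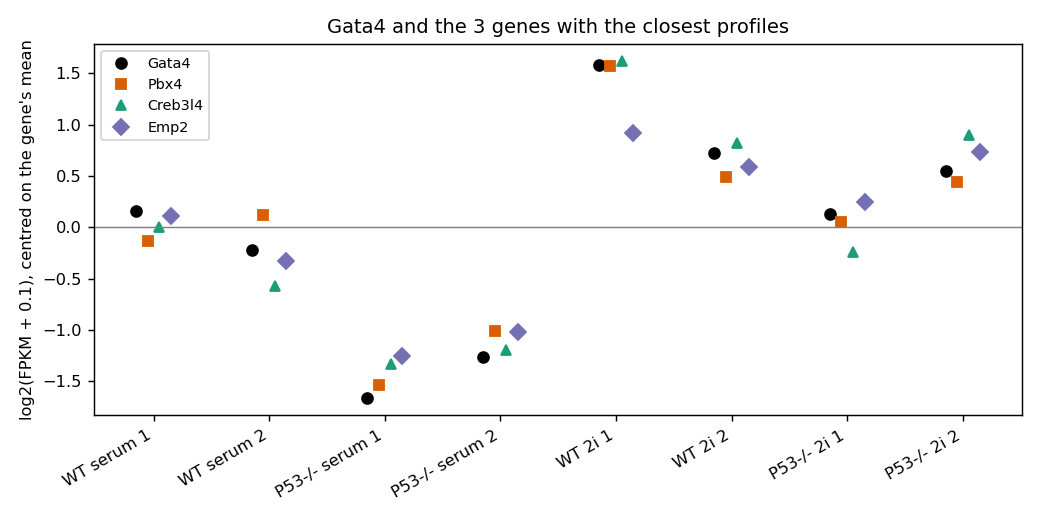
Log2(FPKM + 0.1) of *Gata4* and the 3 genes with the closest profiles, centred on each gene's mean (vertical axis), in the 8 libraries (horizontal axis, marker shapes by gene). All 4 genes are highest in WT 2i library 1 and below their mean in both P53-/- serum libraries.

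Other genes of the extraembryonic endoderm were counted from lists in the main fit. Of 16 visceral endoderm genes, 6 reached a mean FPKM of 0.5. Between WT 2i and WT serum, *Hnf4a* and *Cited1* were called as higher in 2i and *Lrp2* and *Spink1* as lower, where 27.2% of genes were called as higher and 28.6% as lower. *Hnf4a*, a nuclear receptor of the visceral endoderm, was at 6.63 and 0.939 FPKM in the WT libraries from 2i and at 0.465 and 0.246 in the P53-/- ones. In serum it was at 0.134 and 0.126 (WT) and 0.0178 and 0.0473 (P53-/-). Its group mean was 3.78 FPKM in WT 2i and under 0.5 in every other group. It therefore reached the filter only through WT 2i, and its call as higher there is not free of the filter. WT 2i library 1, which was also highest for *Gata4* and *Sox17*, had most *Hnf4a*. In WT, 2i exceeded serum by 3.52 on the log2 scale (SE 0.86, limma adjusted p = 0.00872), and 2.18 without that library. *Spink1*, a protease inhibitor gene, was at 15.4 and 32 FPKM in the WT serum libraries and listed at 0 in all 4 from 2i, so no fold is given. *Cited1*, a transcriptional coregulator gene, was called in 6 of the 8 fits without a library (limma adjusted p up to 0.181). *Ttr*, a carrier protein gene of the visceral endoderm, was listed at 0 in all 8.

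Of 16 genes of the parietal endoderm and its matrix, 12 were tested. In WT 2i against serum 5 were higher and 5 lower, beside 27.2% and 28.6% of all genes, among them *Fst* (2.19 on the log2 scale), *Srgn* (2.18), *Col4a1* (-3.72) and *Col4a2* (-2.64), and the median was near 0, as over all genes. For P53 loss in 2i 3 were lower and 1 higher, with 5.97% of genes called in the first direction and 4.36% in the second. *Col4a1* and *Col4a2*, which encode the collagen IV chains of the basement membrane, had -2.26 (limma adjusted p = 0.0291) and -1.36 (limma adjusted p = 0.07), *Fst*, which encodes follistatin, had -1.59 (limma adjusted p = 0.0463), and *Serpinh1*, a collagen chaperone gene, had 0.67 (limma adjusted p = 0.0792). With each of the 8 libraries left out in turn, *Col4a1* was called 7 times, *Fst* 3 times, and *Col4a2* and *Serpinh1* 2 times each. *Sparc*, the most abundant of the list, had a mean of 73.9 FPKM. In serum 0 of the 12 were called for P53 loss, with calls for 0.883% of genes downward and 0.135% upward.

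The FGF-ERK list held the ligand, receptors, kinases and other parts of the input that acts upstream of *Gata6* in the embryo. It also held feedback genes and ERK-driven factors, such as *Spry4* and *Etv4*. These are outputs, so the counts do not measure the input alone. Of its 19 genes, 18 were tested. In WT 2i 12 were lower and 2 higher than in WT serum, beside 28.6% and 27.2% of all genes, with a median log2 fold change of -0.99 against -0.02 over all genes. Of the genes at 1 FPKM or more on average, those that fell most were the feedback genes *Spry4* (-7.31), *Spry2* (-2.62) and *Spred1* (-2.45) and the ERK-driven factor *Etv4* (-2.53), each with a limma adjusted p of at most 0.000195. *Fgf4*, the ligand, was among the 2 that were higher. *Fgfr2*, an FGF receptor gene, had a mean of 0.269 FPKM and was not tested. *Fgfr1*, another receptor gene, had a mean of 6.03 FPKM. It was called as lower in WT 2i than in WT serum (-0.96, limma adjusted p = 0.00139). For P53 loss in 2i, *Egr1* (-3.17, limma adjusted p = 0.0206) and *Spry2* (-1.08, limma adjusted p = 0.0644) were lower, called in 7 and 3 of the 8 fits without a library, beside 5.97% of all genes. In serum 0 of the 18 were called for P53 loss, beside 0.883% of all genes downward and 0.135% upward. Of the PDGF ligands, 3 of 4 were tested and 0 were called in WT 2i against serum or for P53 loss. *Pdgfa*, which encodes a ligand of PDGFRA, had a mean of 22.7 FPKM, while its receptor stayed under 1.

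**Figure D5:**
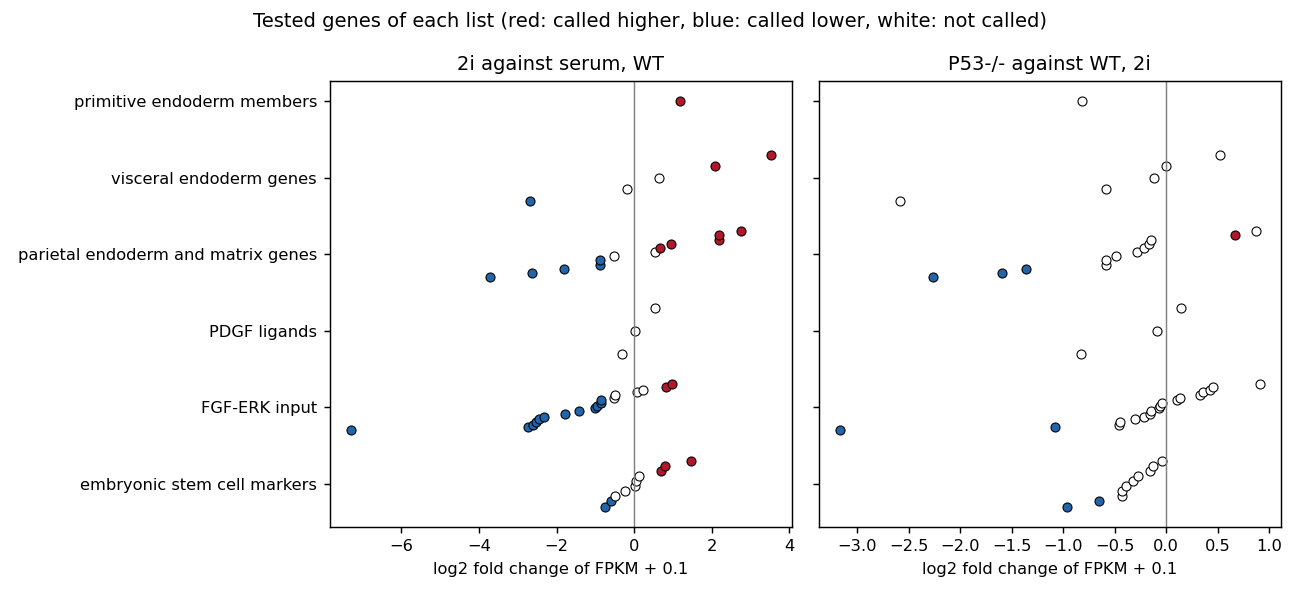
Log2 fold change of FPKM + 0.1 (horizontal axes) of the tested genes of 6 lists, for WT 2i against WT serum (left) and for P53-/- against WT in 2i (right), 1 point per gene, red where called as higher and blue where called as lower. Of these lists, *Spink1*, listed at 0 in a whole group, is left out. Of the 18 FGF-ERK genes 12 are blue in the left panel, while the endoderm lists hold points of both colours there.

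Of 9 relatives of the markers in the GATA, SOX, FOXA, PDGF receptor and DAB families, 5 were tested. The most abundant was *Dab1*, the neuronal relative of *Dab2*, with a mean of 8.34 FPKM and a log2 difference of -3.13 between WT 2i and serum (SE 0.54, limma adjusted p = 0.00169). *Dab2*, under the filter of the main fit, also had a negative difference in the fit of all detected genes (-1.0, limma adjusted p = 0.113). It was not called there, though some alternatives called it, as given above. *Gata2*, a blood and trophoblast relative of *Gata4*, was the 1 of 5 called for P53 loss in 2i, where it was higher, beside 4.36% of all genes called as higher. It was at 1.11 and 0.957 FPKM in P53-/- against 0.277 and 0.121 in WT (1.97 on the log2 scale, limma adjusted p = 0.0443). Its mean over all libraries was 0.567 FPKM and reached the filter only through P53-/- 2i (mean 1.03), so that call is not free of the filter.

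Markers of other cells that express some of the 7 genes were counted in the same way. Of the 10 fibroblast markers, which bear on *Pdgfra*, *Gata6* and *Dab2*, 7 had a mean FPKM under 0.1 and 3 (*Col3a1*, *Postn* and *Fap*) were listed at 0 in all libraries. Their sum was 8.35 to 10.9 FPKM in the serum libraries and 0.831 to 1.59 in the 2i libraries, and *Thy1*, at a mean of 4.65 FPKM, held most of it in serum. In WT 2i library 2, *Thy1* was at 0.343 FPKM and *Col1a1* at 0.501. Of the 6 endothelial markers, which bear on *Sox7* and *Sox17*, *Emcn* was listed at 0 throughout and *Cdh5* had a mean of 0.0262 FPKM. The 3 tested, *Kdr*, *Tek* and *Vwf*, had means of 0.813 to 1.05 FPKM and were all called as higher in WT 2i than in WT serum, beside 27.2% of all genes. In the same comparison *Sox17* was higher and *Sox7* lower, as given above. *Tek* was also called as lower for P53 loss in 2i (-2.05, limma adjusted p = 0.0337). It reached the mean FPKM of 0.5 only through WT 2i (mean 1.86), so its calls are not free of the filter. The 6 endothelial markers summed to 4.63 and 5.87 in WT 2i, against 1.52 to 2.2 elsewhere. Of 7 genes of the primitive streak and definitive endoderm, which share *Foxa2* and *Sox17*, 3 were tested. In WT 2i 2 were called as higher and 0 as lower, beside 27.2% and 28.6% of all genes. *T* was called as higher in WT 2i than in WT serum (3.02 on the log2 scale, limma adjusted p = 0.00281), as was *Gsc*, which was listed at 0 in both WT serum libraries and at 6.85 and 8.14 FPKM in those of WT 2i. *Eomes*, the other tested gene, had -0.52 in WT (limma adjusted p = 0.174) and was called as lower in P53-/- (-0.77, limma adjusted p = 0.057). The sum of 7 trophoblast markers was 0.983 to 1.72 FPKM in serum and 1.91 to 3.88 in 2i. Of the 3 tested, *Krt7*, a keratin gene, was called as higher for P53 loss in 2i, beside 4.36% of all genes (log2 difference 2.14, limma adjusted p = 0.0972), at 2.39 and 1.94 FPKM in P53-/- against 0.165 and 0.883 in WT. *Krt7* reached the mean FPKM of 0.5 only through P53-/- 2i (mean 2.16), so that call is not free of the filter. The part of such cells in the levels of the 7 markers was not tested.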

How the data were processed

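RNA of G1-sorted ESCs was depleted of ribosomal RNA, reverse-transcribed with random primers and made into stranded libraries, per the labels. The authors deposited 1 table of FPKM values, 1 line per gene symbol and 2 columns for each of 4 groups. The submitters' processing notes name STAR, Cufflinks, DESeq2 and the build mm9 without roles or versions. The annotation is not given in the sources used here. Columns name genotype and culture only, so libraries were assigned to groups and not to replicate numbers. The 4 other samples (P21-/- and their WT 2i) were not analysed here.

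The 12572 genes whose mean FPKM was 0.5 or more were fitted as log2(FPKM + 0.1) with limma 3.58.1 (R 4.3.3), with 4 group means, eBayes with trend and Benjamini-Hochberg adjustment. Calls needed a fold over 1.5 and an adjusted p below 0.1. The pseudocount understates changes of low genes. The filter takes the mean over all libraries, so that a gene can reach it through the groups where it is high. *Spink1*, *Gsc* and *T*, among others, reached it in this way. *Gata4* averaged 0.463 FPKM in serum and 1.4 in 2i, and it was also called between the cultures in the fit of all detected genes. Alternatives with all 18380 detected genes gave the tests of the other 6 markers. Single markers were also tested with exact permutation, for culture without regard to genotype and for genotype within each culture. The code of the fit was run on simulated libraries of the same layout with known changes, as a check of the code only. Sequences and positions came from RefSeq and GENCODE on GRCm38, matched by symbol, and figures from Python 3.11.15. Listed genes were named up to 4 per list and contrast, by size of change among those called and at 1 FPKM or more on average, and genes outside this rule were chosen after their values were seen. For *Gata4*, the 3 genes with the closest profiles and a profile SD of at least 0.3 were named. The markers and lists were chosen with earlier results of these data known. Alternatives were other pseudocounts, filters, scalings, fits of the compared groups, no trend and each library left out, and the contrast of genotypes averaged over cultures and the left-out libraries for single markers were added after values had been seen.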

Additional observations from a re-analysis of the deposited data

How the results depend on the processing

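The number of the 7 markers called depended on the filter, which alone decides how many are tested. With no filter it was 3 for WT 2i against serum, 2 for the same in P53-/- and 4 averaged over genotypes, in place of 1 each, and with a mean FPKM of at least 1, which leaves none of them in the test, it was 0 in all 3 and 0 for P53 loss averaged over cultures. With the filter, where *Gata4* alone is tested, quantile normalization gave 0 for WT 2i against serum and 0 for averaged P53 loss, and a pseudocount of 1 gave 0 for the latter. With each library left out in turn, both counts ran from 0 to 1. With all detected genes, the count for WT 2i against serum was 5 with quantile normalization, 4 without trend, 2 with a pseudocount of 1 or the compared groups only, and 1 to 4 with a library left out (35.4% to 44.6% of all genes were called in these fits), in P53-/- it was 1 with a pseudocount of 1, 3 with the compared groups only and 2 to 3 with a library left out (37.2% to 46.0%), and averaged over genotypes it was 6 with quantile normalization, 4 without trend, 1 with a pseudocount of 1, 3 with one of 0.01, and 3 to 4 with a library left out (36.9% to 50.2%). The cause was not tested. With a pseudocount of 1 and all detected genes, the 2 markers called in WT were both higher in 2i. With the compared groups only, the 2 called were both lower. The counts for P53 loss in 2i and for the interaction were 0 under the alternatives run, and that for serum was 0 except with all detected genes and without P53-/- serum library 1, where it was 1 (*Dab2*), beside 1.8% of all genes.

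In the exact permutation test of 2i against serum, quantile normalization brought *Gata6* past 0.05 (-0.77 on the log2 scale) and took *Sox17* to p = 0.0571 (1.54). With each library left out, the difference ran from 1.19 to 1.80 for *Gata4*, from 1.34 to 2.03 for *Sox17* and from -1.13 to -0.47 for *Dab2*, crossing 0.05 for some libraries.

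No marker called with all libraries changed direction under an alternative. *Dab2* in P53-/-, called only without P53-/- serum library 2, ran from -1.05 to 0.16 for 2i against serum. Fits without 1 library leave a group with a single library, which is assumed to vary like the others. No paired analysis was possible because the columns carry no replicate numbers. At about 5200000 to 13000000 fragments a library, *Foxa2* rests on at most 3 fragments, *Sox17* in serum on at most 7 and *Sox7* in 2i on at most 1.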
